A study of Homo sapiens with 18 samples.

Results

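Heterotrimeric G proteins are built from an α subunit, which binds the nucleotide, and a βγ dimer that is put together in the cytosol and stays together for life. A β subunit is folded by the chaperonin CCT with its co-chaperone PDCL, joined to a γ subunit, and carried to the plasma membrane by the lipid that is attached to the carboxyl end of the γ subunit. When an agonist-bound receptor such as the β2-adrenergic receptor (β2AR) acts on Gαs, the dimer is released and binds effectors of its own, among them the receptor kinases GRK2 and GRK3, phospholipase Cβ, some adenylyl cyclases and potassium channels. The data below are the messenger RNA levels of 10 genes of the dimer, which were set by a fixed list of names: the 4 Gβ genes GNB1, GNB2, GNB4 and GNB5 and the 6 Gγ genes GNG2, GNG4, GNG5, GNG10, GNG11 and GNG12. All 10 passed the filter on low counts, of 23903 genes with a count and 15519 genes tested.

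RNA came from HEK293 cells, an established line from human embryonic kidney, in 3 forms: Gαs KO, wildtype, and β-arrestin1/2 KO, both knockouts being CRISPR-Cas9 derivatives of the line. All cells, wildtype included, had been transiently transfected with a plasmid for β2AR and starved of serum overnight, and 48 h after transfection they received vehicle (basal) or 1 μM isoproterenol, a β-adrenergic agonist, for 1 h. Each of the 6 groups had 3 biological replicates, and the sources used here do not say whether a knockout line is 1 clone. The receptor was expressed from the plasmid in every group, and an effect of a lost gene cannot be told apart here from other differences between the lines. Levels are given as CPM, the rounded count of a gene per 1000000 counts of the effective library size, and, where genes are compared with each other, as TPM, transcripts per 1000000 transcripts, which also divides by transcript length. A log2 difference of 1 is a fold of 2, SE is its standard error, and a gene is said to have changed where edgeR's quasi-likelihood test gave a Benjamini-Hochberg adjusted p under 0.05 over all genes tested.

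The libraries held 17908597 to 25019834 counts. One of them, wildtype basal replicate 1, stood apart in library-wide measures. It had a count-weighted GC content of 52.5%, against 49.2 to 50.1% in the other 17. Its log2 levels correlated at 0.940 and 0.944 with its own replicates, against 0.977 to 0.984 for the other pairs within groups. The comparisons of the members with wildtype basal are given with and without it. The targeted genes followed the labels for Gαs (GNAS, mean 1317 CPM in wildtype basal and 66.0 in Gαs KO basal) and for β-arrestin2 (ARRB2, 98.9 and 20.8 CPM in β-arrestin1/2 KO), whereas ARRB1 stood at 49.6 and 41.0 CPM, so its messenger RNA does not show the knockout. Isoproterenol raised all 6 control genes of the list NR4A1, NR4A2, FOS, PCK1, DUSP1 and SIK1 in β-arrestin1/2 KO and in wildtype cells, and 0 of 6 where Gαs was knocked out. Of the markers of other cell types, 1 of 3 for endothelium and 2 of 4 for fibroblasts passed the filter on low counts, VWF (1.79 to 7.24 CPM), COL1A1 (18.4 to 47.7) and PDGFRB (1.60 to 3.75). CD68 of macrophages was at 3.09 to 18.3 CPM. At basal 1 endothelial marker and 1 leukocyte marker were lower in β-arrestin1/2 KO than in wildtype. In Gαs KO basal 1 fibroblast marker and 2 leukocyte markers were lower than in wildtype. The part of these markers in the results below was not tested. PTPRC did not exceed 0.23 CPM, PECAM1 0.66 CPM and DCN 0.20 CPM, and all 10 genes of the HEK293 list passed, with vimentin (VIM) between 618 and 1509 CPM.

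The 10 genes lie on 6 chromosomes (GRCh38, GENCODE 29). GNB1 (chr1:1785285-1891117), GNG12 (chr1:67701466-67833467), GNG5 (chr1:84498325-84506565) and GNG4 (chr1:235547687-235650754) are on the minus strand of chromosome 1. GNB4 (chr3:179396089-179451590) and GNB5 (chr15:52115105-52191369) are on the minus strand too. GNG11 (chr7:93921699-93928610), GNB2 (chr7:100673531-100679174), GNG10 (chr9:111661335-111670246) and GNG2 (chr14:51826195-51979342) are on the plus strand.

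In these cells the messenger RNA of the dimer was dominated by a pair of Gβ genes and a pair of Gγ genes. GNB1, a Gβ gene expressed in most tissues, held a median of 57.5% of the summed Gβ level per length (range over 18 libraries, 54.7 to 61.1%), and GNB2, a close relative, held 31.4% (29.5 to 33.7%). GNB4 held 6.87% and GNB5, the divergent Gβ that pairs with RGS proteins of the R7 family, held 2.94%. The order GNB1, GNB2, GNB4, GNB5 was the same in 18 of 18 libraries, and the ranges of neighbours did not overlap: the lowest GNB1 library was at 279 TPM and the highest GNB2 library at 198 TPM. GNB3, which is best known from cone photoreceptors, had a median of 3.19 TPM.

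Among the Gγ genes GNG5 was highest, with a median of 156 TPM and 39.4% of the summed level of 12 Gγ genes, followed by GNG10 (110.3 TPM, 28.7%), GNG12 (58.9 TPM, 14.6%) and GNG4 (39.6 TPM, 10.0%). GNG11, which like the rod subunit GNGT1 is farnesylated rather than geranylgeranylated, had 4.94 TPM, and GNG2, a widely used partner of GNB1 in reconstitution experiments, only 2.50 TPM. GNG5 was above GNG10 in 18 of 18 libraries although their ranges overlapped (131 to 205 TPM and 35.7 to 146 TPM). GNG12 was above GNG4, and GNG11 above GNG2, in 17 of 18 libraries. The neighbouring ranges GNG10 with GNG12, GNG12 with GNG4 and GNG11 with GNG2 overlapped only with wildtype basal replicate 1 included; without it the lowest GNG10 library was at 96.6 TPM and the highest GNG12 library at 64.9 TPM. Of the Gγ genes outside the 10, GNG7 reached a median of 8.93 TPM, GNG13 2.51, GNGT1 2.13, GNG3 0.89 and GNGT2 0.64 TPM, and GNG8 had 2 counts in 1 library, 1 count in another and 0 in the rest, too few to be tested.

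**Figure D1:**
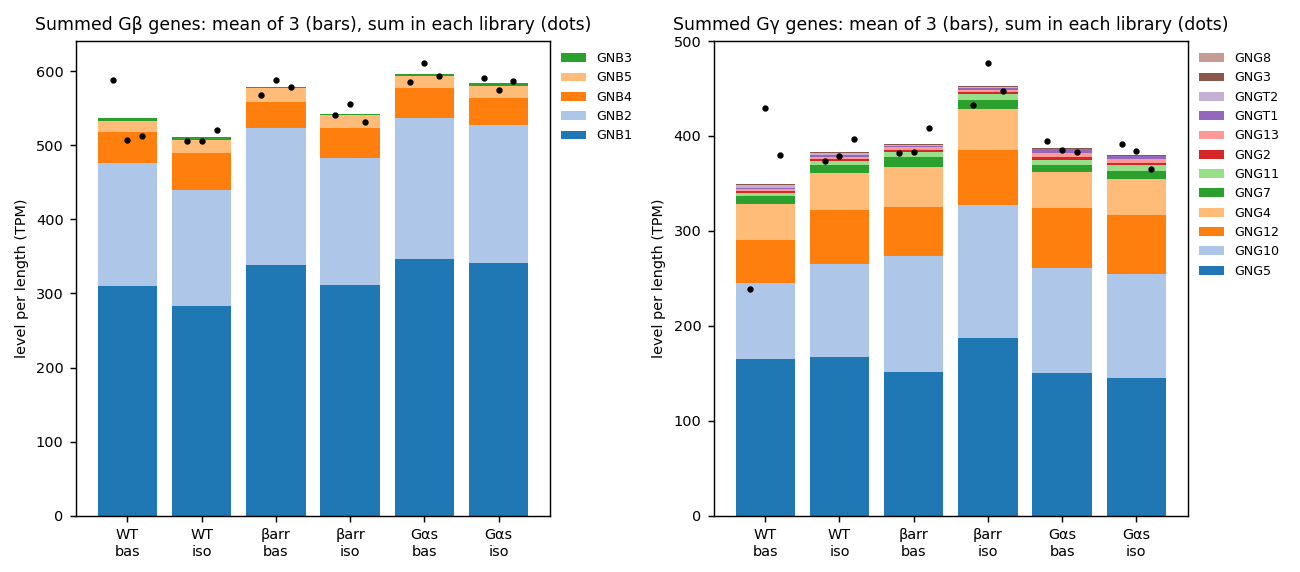
Mean TPM of the Gβ genes (left) and Gγ genes (right) stacked for each of the 6 groups, with 3 libraries each. WT is wildtype, βarr is β-arrestin1/2 KO, Gαs is Gαs KO, bas is basal and iso is isoproterenol; dots are the sums in single libraries. GNB1 and GNB2 fill most of the left bars and GNG5 and GNG10 most of the right bars, and wildtype basal replicate 1 is the low dot at 238 TPM on the right.

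These are levels in bulk RNA, in which fewer cells that express a gene and less RNA per cell cannot be told apart. The summed Gβ level ran from 506 to 611 TPM over the 18 libraries. The summed Gγ level was 383 TPM ± 12.1 (SD, n = 3) in wildtype isoproterenol, 391 ± 15.1 in β-arrestin1/2 KO basal, 452 ± 22.2 in β-arrestin1/2 KO isoproterenol, 387 ± 6.12 in Gαs KO basal and 380.1 ± 13.4 in Gαs KO isoproterenol. The 3 β-arrestin1/2 KO isoproterenol libraries, at 433, 477 and 447 TPM, lay above every other library, wildtype basal replicate 2 at 429 TPM being the nearest. In wildtype basal the 3 sums were 238, 429 and 380.0 TPM, the lowest being replicate 1. Within the Gβ level GNB1 had group means between 55.3 and 58.5%, while GNB4 had 9.84% ± 0.381 in wildtype isoproterenol and 6.45% ± 0.331 in Gαs KO isoproterenol.

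For most of the genes the signal came largely from 1 transcript. GNB2-201 carried 91.2% of the counts of GNB2, GNB4-201 98.9% of GNB4, GNB1-201 85.5% of GNB1 and GNG5-202 98.5% of GNG5, while GNG10 and GNG11 have a single transcript in the annotation. GNB5 was divided between GNB5-203 (42.6%), GNB5-202 (42.5%) and the long GNB5-201 (12.8%). GNG4 was divided between GNG4-203 (51.3%) and GNG4-201 (48.6%), with GNG4-203 at 57.3% in β-arrestin1/2 KO basal and 48.7% in wildtype basal. Salmon shares reads between overlapping transcripts by a model, and the sources used here do not state strand. Members that share exonic bases with another gene are therefore less certain. Of the exonic bases of GNG10, 73.1% are also in the readthrough gene DNAJC25-GNG10 on the same strand (91 to 427 counts a library). For GNG5, 10.7% lie opposite SPATA1 (0 to 11 counts) and 30.9% are shared with AL359762.3 on the same strand. For GNB4, 27.6% lie opposite AC007620.2. The shares opposite other genes were 7.51% for GNG2 (AL358333.3), and 6.57% (AC023906.3) and 2.68% (AC023906.4) for GNB5. Apart from DNAJC25-GNG10 and SPATA1, these overlapping genes have no count in the gene sums used here. Summing the readthrough gene into GNG10 left its log2 difference at 0.50 in place of 0.47 between β-arrestin1/2 KO and wildtype isoproterenol. The processed pseudogenes of GNG5 and GNG10 in the table were at 0 counts.

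**Figure D2:**
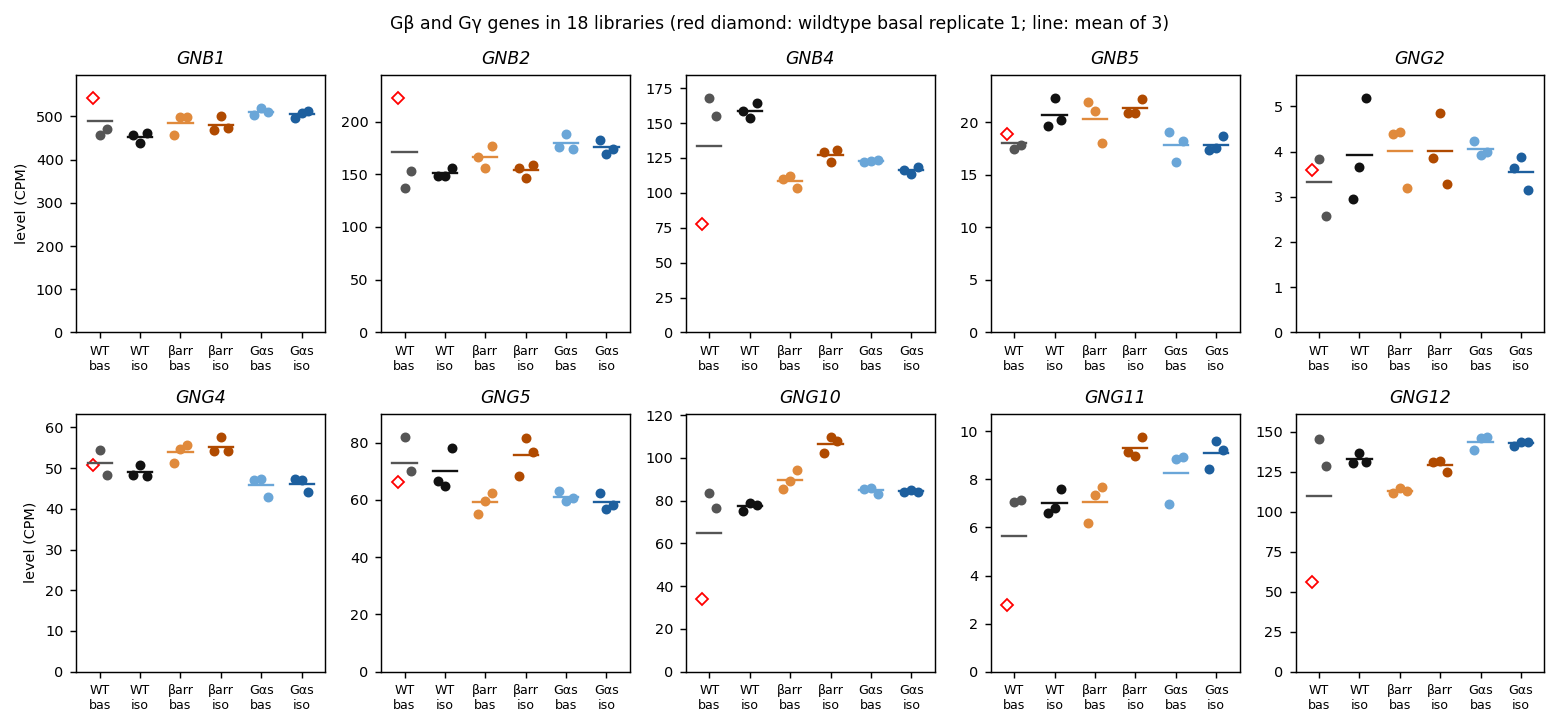
Level in CPM (axes from 0) of the 10 genes in each of the 18 libraries, with the mean of 3 as a line; WT is wildtype, βarr is β-arrestin1/2 KO, Gαs is Gαs KO, bas is basal and iso is isoproterenol. Wildtype basal replicate 1 (red diamond) lies at about the level of its replicates for GNB5, GNG2 and GNG4 and far below them for GNB4, GNG10, GNG11 and GNG12, where it stands at 77.4, 34.0, 2.78 and 56.2 CPM.

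The members themselves showed how wildtype basal replicate 1 differed. GNG12 was at 56.2 CPM in it and at 146 and 128 CPM in the other wildtype basal libraries. GNG10 was at 34.0 against 83.5 and 76.6 CPM, and GNG11 at 2.78 against 7.05 and 7.13 CPM. GNB4 was at 77.4 against 168 and 155 CPM, whereas GNB2 was at 222 against 137 and 153 CPM, above the other 17 libraries. In log2 terms the library lay below the mean of its replicates by -1.29 for GNG12, whose transcripts have 37.9% GC, by -1.35 for GNG11 (42.2% GC), by -1.24 for GNG10 (44.5% GC) and by -1.06 for GNB4 (39.0% GC), and above it by 0.62 for GNB2 (64.3% GC). The middle of the GC range, GNB1, GNB5, GNG4 and GNG5 with 48.4 to 52.7%, lay within -0.20 to 0.23. GNG2, with 39.5% GC and 44 to 66 counts in these libraries, lay at 0.16 and did not follow the order. Offsets that model each library's dependence on GC and length are given below as an alternative; what made this library different was not tested.

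**Figure D3:**
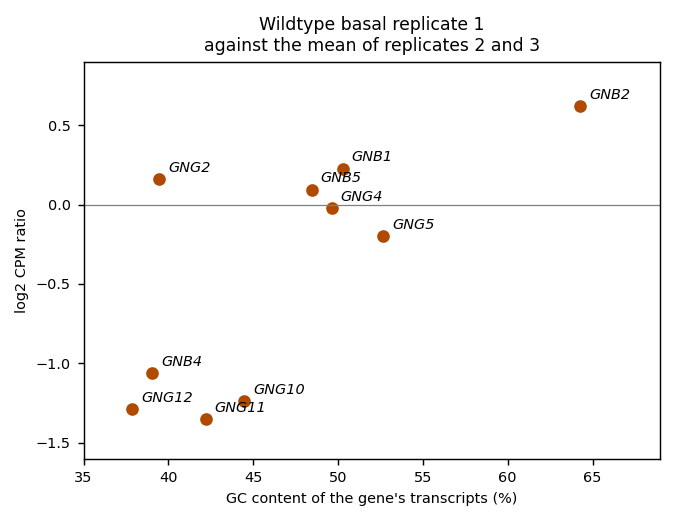
For each of the 10 genes, the log2 ratio of CPM in wildtype basal replicate 1 to the mean of wildtype basal replicates 2 and 3 (vertical axis) against the GC content of its transcripts in percent (horizontal axis). GNB2, at 64.3% GC, is the highest point at 0.62, and GNB4, GNG10, GNG11 and GNG12, all under 45% GC, lie between -1.06 and -1.35, while GNG2 at 39.5% lies at 0.16.

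Over all 6 groups the most variable Gβ gene by the edgeR F statistic was GNB5 (F = 3.13, adjusted p = 0.066, ranked 8725 of 15519 genes) and the most variable Gγ gene was GNG5 (F = 5.35, adjusted p = 0.011, rank 6102). GNG4 also passed the test over the 6 groups (F = 4.80, adjusted p = 0.017), so 2 of 10 members did, where 53.3% of all genes did. The genes whose log2 levels were most like those of GNB5 over the 18 libraries were FOXA2 (Pearson r = 0.83), ADRB1 (0.80) and ZC3H12A (0.79), and those most like GNG5 were MFF (0.83), HYKK (0.83) and SNRPE (0.82). The 6 correlations were 0.80 to 0.85 when wildtype basal replicate 1 was left out. These are the highest of 15518 genes searched, and the libraries share lines and treatments, so they are a description only. Within the family, GNG10 and GNG11 ran together at r = 0.90 and GNG10 and GNG12 at 0.78 over 18 libraries, values that became 0.56 and -0.27 without wildtype basal replicate 1, while GNB2 and GNB4 were opposed with and without it (-0.82 and -0.69).

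The first question is how the β-arrestin1/2 KO line differs from wildtype cells at basal, whatever the source of the difference. With all libraries, 1 of 10 members changed between β-arrestin1/2 KO and wildtype cells, where 33.6% of all genes changed, and the median size of the difference was 0.22 (log2) over the members and 0.33 over all genes. The 1 was GNG5, which was at 55.3, 59.8 and 62.4 CPM in β-arrestin1/2 KO basal and at 66.2, 81.9 and 70.2 CPM in wildtype basal. The 3 KO libraries lay below all 3 wildtype libraries (the 2 groups did not overlap for 2 of 10 members and for 37.5% of all genes), and the log2 difference was -0.30 (SE 0.10, edgeR adjusted p = 0.027). At an unadjusted p under 0.05 there were 2 members beside 43.1% of all genes, and DESeq2 called 1 beside 36.8%. The GNG5 call was lost without wildtype basal replicate 2 (-0.20), without β-arrestin1/2 KO basal replicate 1 (-0.25) or 2 (-0.30), and with offsets for GC and length (-0.14). Without wildtype basal replicate 1 the test called 5 of 10 members, where it called 46.7% of all genes. GNB4 was then the largest of them, at 109.8, 112 and 104 CPM in the KO against 168 and 155 CPM in wildtype, a log2 difference of -0.57 (SE 0.05, edgeR adjusted p = 4.5e-08); with all libraries it was -0.30 (SE 0.18, adjusted p = 0.22). GNG5 fell by 0.36 and GNG12 by 0.27 on the log2 scale in the same fit, and GNB2 rose by 0.21 and GNG10 by 0.17. With offsets for GC and length, also without wildtype basal replicate 1, GNB2 was not called. GNB4 (-0.49), GNG12 (-0.18) and GNG10 (0.24) were called there. With all libraries GNB2 (-0.04) and GNG12 (0.04) had the opposite sign and did not pass the test.

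The same comparison can be made in the isoproterenol libraries, which hold no library that stands apart. There GNG10 was at 103, 109.6 and 108 CPM in β-arrestin1/2 KO and at 75.1, 78.9 and 77.8 CPM in wildtype cells, and the groups did not overlap, which held for 5 of 10 members and 55.8% of all genes. Its log2 difference was 0.47 in the fit with all libraries (SE 0.20, edgeR adjusted p = 0.096) and 0.47 in the fit without wildtype basal replicate 1 (SE 0.05, adjusted p = 1.8e-07). The estimate did not move; the SE did, because all groups share 1 dispersion estimate per gene. GNB4 behaved in the same manner, at 129, 122 and 131 CPM against 159, 154 and 164 CPM, with a log2 difference of -0.32 and an adjusted p of 0.20 with all libraries and 9.9e-06 without the 1 library in edgeR. GNG11 (0.41, SE 0.13, edgeR adjusted p = 0.012) and GNG4 (0.18, SE 0.06, adjusted p = 0.020) were also called in the smaller fit, so that 4 of 10 members were called beside 49.6% of all genes, and 0 of 10 beside 30% with all libraries. In that fit with all libraries 2 members had an unadjusted p under 0.05 (39.8% of all genes), and DESeq2 called 1, GNG4 (33.1%). The fit to the 6 libraries of these 2 groups alone called the same 4 members. For 9 of 10 members, GNG5 being the exception, the line difference had the same sign at basal (without wildtype basal replicate 1) and after isoproterenol, where 76.6% of all genes did. With all libraries it was 6 of 10 beside 82.0%. The same count for Gαs KO was 8 of 10 beside 83.2% without that library, GNB5 and GNG2 being the exceptions. It was 9 of 10 beside 78.9% with all libraries.

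For Gαs KO against wildtype cells at basal, 0 of 10 members were called by edgeR with all libraries, where 31.3% of all genes were; 3 members had an unadjusted p under 0.05 (41.4% of all genes) and DESeq2 called 1, GNG5 (34.6%). The groups did not overlap for 3 of 10 members and 38% of all genes. The lowest adjusted p was that of GNG5, which was at 63.1, 59.6 and 60.7 CPM in Gαs KO and at 66.2, 81.9 and 70.2 CPM in wildtype, a log2 difference of -0.25 (SE 0.10, edgeR adjusted p = 0.061). Without wildtype basal replicate 1, 5 of 10 were called beside 45.9% of all genes. GNB1 rose by 0.14 and GNB2 by 0.31, while GNB4 fell by 0.40, GNG4 by 0.17 and GNG5 by 0.32 (log2).

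In the isoproterenol libraries GNB4 was at 116, 113 and 119 CPM in Gαs KO and at 159, 154 and 164 CPM in wildtype cells, a log2 difference of -0.45 (SE 0.18, edgeR adjusted p = 0.068 with all libraries; SE 0.04, adjusted p = 1.6e-07 without wildtype basal replicate 1). GNB2 was higher in Gαs KO, at 183, 169.6 and 174 CPM against 149, 148 and 156 CPM (log2 difference 0.22, edgeR adjusted p = 0.22 and 0.0031 in the same 2 fits). GNB1, at 497, 508 and 513 against 457, 439 and 461 CPM, differed by 0.16 (edgeR adjusted p = 0.079 and 0.0020). GNG5, at 62.6, 57.0 and 58.2 against 66.8, 64.9 and 78.3 CPM, differed by -0.24 (edgeR adjusted p = 0.076 and 0.020). The groups of all 4 genes did not overlap, and for 9 of 10 members they did not overlap in this comparison, GNG2 being the exception, where 56.9% of all genes did not. The calls were 0 of 10 beside 29.9% of all genes with all libraries (4 members and 39.8% of all genes with an unadjusted p under 0.05, and GNB1 and GNB4 called by DESeq2 beside 33.2%), and 6 of 10 beside 49.4% without the 1 library. GNB4 was thus lower than in wildtype in both knockout lines and in both treatments, in the 17-library fit. GNG5 was lower in 3 of those 4 comparisons, β-arrestin1/2 KO isoproterenol being the exception (log2 difference 0.11, SE 0.08). Within each treatment both lines were compared with the same wildtype libraries, so their 2 differences are not independent.

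**Figure D4:**
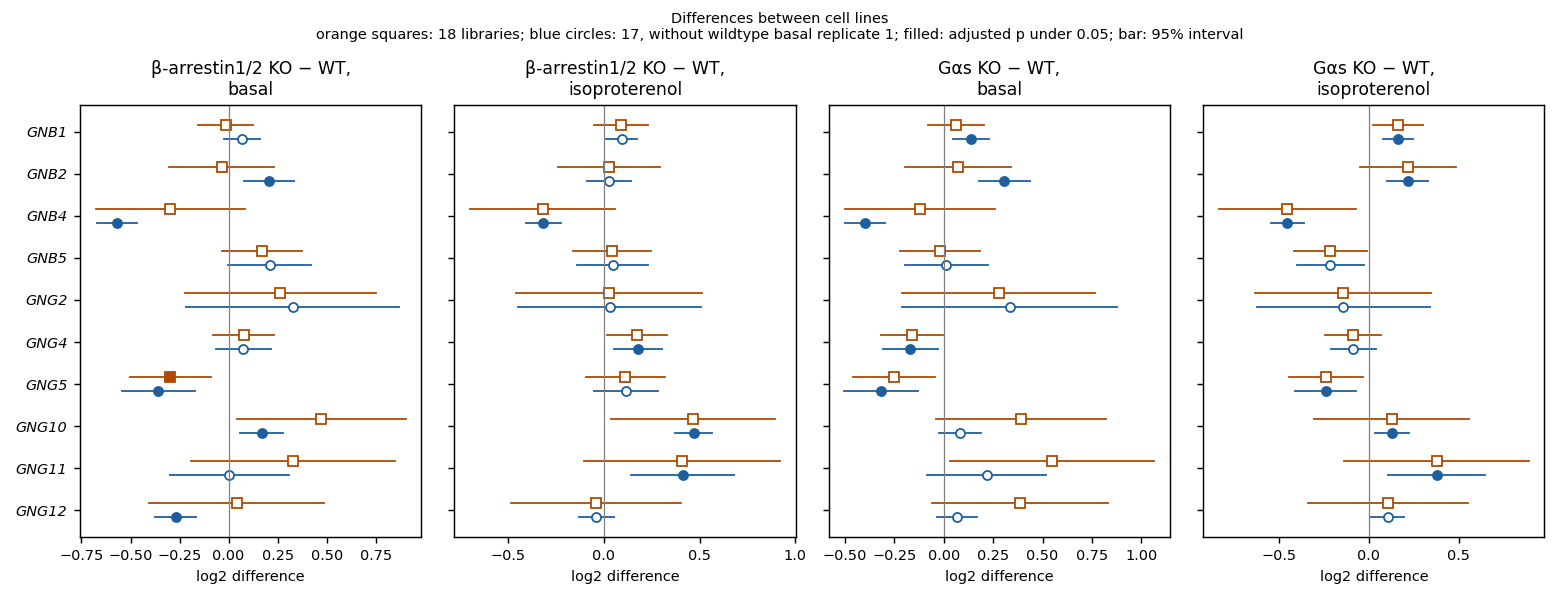
Log2 differences (horizontal axis) of the 10 genes between each knockout line and wildtype cells, basal and after isoproterenol, with 95% intervals. Orange squares use all 18 libraries and blue circles 17, without wildtype basal replicate 1; filled symbols have an edgeR adjusted p under 0.05. GNB4 lies left of 0 in all 4 panels under both fits, and in the 2 isoproterenol panels the squares and circles coincide while the intervals differ in width.

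The knockout lines were also set against each other at basal, a comparison that uses no wildtype library. GNG4, a Gγ gene known best from brain, was at 51.3, 54.7 and 55.7 CPM in β-arrestin1/2 KO and at 47.0, 47.3 and 43.0 CPM in Gαs KO. The groups did not overlap, and the log2 difference of 0.24 (SE 0.07, edgeR adjusted p = 0.024) was the 1 call of 10 members, where 26.2% of all genes were called. DESeq2 also called 1 member (29.8% of all genes), 1 had an unadjusted p under 0.05 (36.6%), and the groups did not overlap for 4 of 10 members and 56% of all genes. When wildtype basal replicate 1 was left out of the shared dispersion, 3 of 10 were called beside 45.3%: GNG4 again, GNG12 (112, 115 and 113 against 139, 146 and 147 CPM; -0.34, SE 0.04) and GNB4 (-0.17, SE 0.04).

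The second question is what isoproterenol does in each line within 1 h. No response passed the test for any member with all libraries in edgeR. In wildtype cells 0 of 10 were called beside 0.464% of all genes, with 0 members at an unadjusted p under 0.05 beside 10.5%, and 0 called by DESeq2 beside 1.2%. In β-arrestin1/2 KO cells they were 0 of 10 beside 1.13%, with 1 at an unadjusted p under 0.05 (8.31%), GNG5, which DESeq2 called (1.88%). In Gαs KO cells they were 0 of 10 beside 0%, with 0 at an unadjusted p under 0.05 (1.05%) and 0 by DESeq2 (0.058%). The basal and isoproterenol groups of 1 line did not overlap for 1 of 10 members in wildtype (9.01% of all genes), for 5 where β-arrestin1/2 was lost (29.7%) and for 2 where Gαs was lost (10.5%). In Gαs KO cells the largest response of a member was -0.19 (GNG2, SE 0.23), and the median size over the members was 0.02 (log2), beside 0.06 over all genes. GNB1 there was at 504, 519 and 511 CPM basal and at 497, 508 and 513 CPM after isoproterenol, a log2 response of -0.02 with a 95% interval of -0.16 to 0.13. In wildtype cells, without the 1 library, 0 of 10 were called beside 1.1% of all genes, and the largest response was that of GNG2 (0.29, SE 0.26), followed by GNB5, at 17.5 and 17.9 CPM basal and 19.7, 22.3 and 20.2 CPM after isoproterenol (0.23, SE 0.10, edgeR adjusted p = 0.32).

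The β-arrestin1/2 KO response was different in that 4 members passed the test once wildtype basal replicate 1 no longer set the dispersion. GNG5 was at 55.3, 59.8 and 62.4 CPM basal and at 68.5, 81.6 and 76.7 CPM after isoproterenol, a log2 response of 0.35 (SE 0.08, edgeR adjusted p = 0.0091). GNG10 rose from 85.4, 89.0 and 94.5 to 103, 109.6 and 108 CPM (0.25, SE 0.04, adjusted p = 0.0019). GNB4 rose from 109.8, 112 and 104 to 129, 122 and 131 CPM (0.23, SE 0.04, adjusted p = 0.0032). GNG12 rose from 112, 115 and 113 to 131, 132 and 125 CPM (0.19, SE 0.04, adjusted p = 0.012). In each of the 4 the highest basal library lay below the lowest isoproterenol library. GNG11 gave 6.19, 7.36 and 7.68 CPM and then 9.13, 8.99 and 9.75 CPM, the largest estimate of the 10 (0.39, SE 0.13) with an adjusted p of 0.055 in edgeR. The count of 4 of 10 stands beside 11.7% of all genes called in that fit, all 4 were rises, and 6.6% of all genes were called as rises. The responses of these genes in the fit with all libraries were the same to the second decimal, with adjusted p from 0.14 to 0.85.

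The fit to the 6 β-arrestin1/2 KO libraries alone, in which no library of the comparison is left out, called the same 4 members beside 7.94% of all genes. One measured fact moved with this comparison: the mean GC content was 49.8 to 50.1% in the 3 β-arrestin1/2 KO basal libraries and 49.3 to 49.4% in the 3 isoproterenol libraries, and GNB4 and GNG12 are the 2 members with the lowest GC. With offsets for GC and length, and without wildtype basal replicate 1, the responses were 0.38 for GNG5 (edgeR adjusted p = 0.0086) and 0.20 for GNG10 (0.0076), and 0.12 for GNB4 (0.23) and 0.06 for GNG12 (0.44). So 2 of the 4, GNG5 and GNG10, passed with and without the offsets, beside 4.51% of all genes with them, and with the offsets and all libraries 0 of 10 passed beside 2.36%.

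**Figure D5:**
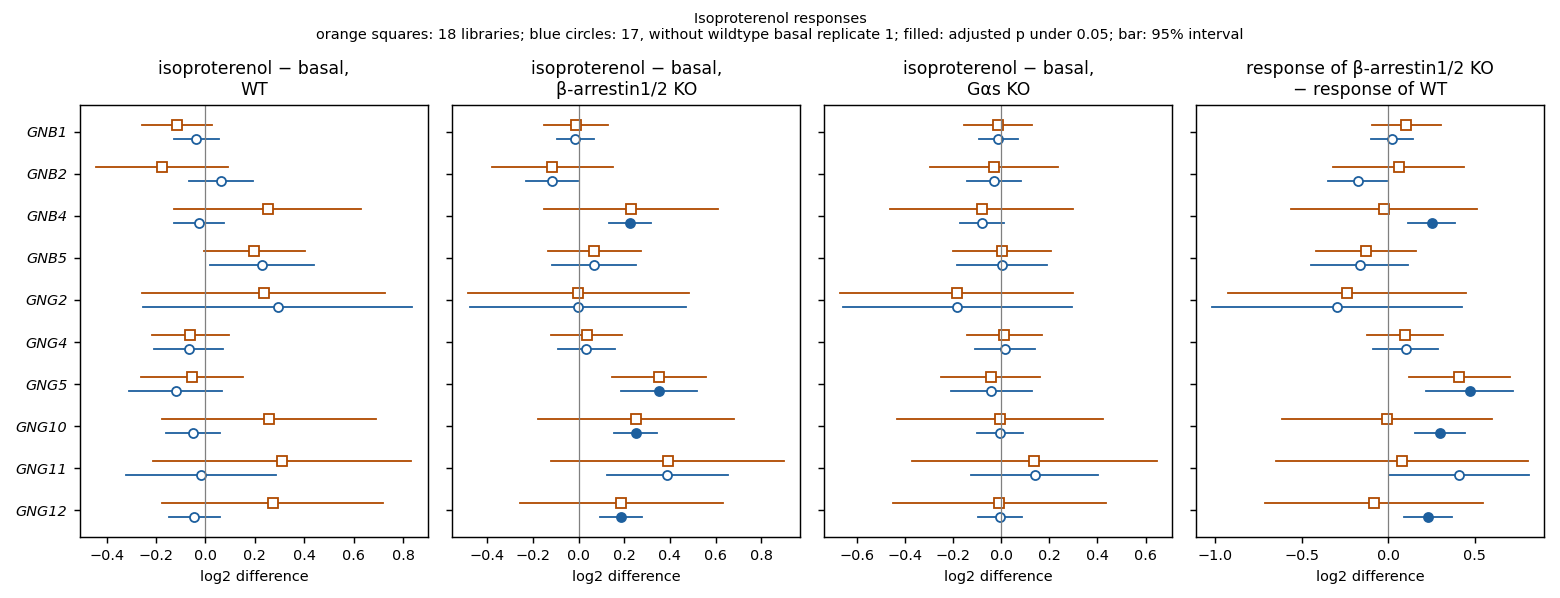
Log2 responses to isoproterenol (horizontal axis) of the 10 genes in each line (panels from the left: wildtype, then the β-arrestin1/2 line, then the Gαs line), and the difference of the β-arrestin1/2 KO response from the wildtype response, with 95% intervals. Orange squares use 18 libraries and blue circles 17, without wildtype basal replicate 1; filled symbols have an edgeR adjusted p under 0.05. Filled circles are GNB4, GNG5, GNG10 and GNG12 in the second and in the last panel, and every interval in the Gαs KO panel includes 0.

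Whether the response itself differed between lines was tested as an interaction. Against wildtype, the β-arrestin1/2 KO response differed for 0 of 10 members with all libraries, beside 0.168% of all genes, with 1 member at an unadjusted p under 0.05 (5.57%) and 0 called by DESeq2 (0.67%). The Gαs KO response differed for 0 of 10 beside 0.161%, with 0 at an unadjusted p under 0.05 (4.63%) and 0 by DESeq2 (0.438%). It also differed for 0 of 10 without wildtype basal replicate 1, beside 0.418% of all genes. In that fit the Gαs KO response itself was called for 0 of 10 beside 0%. Without wildtype basal replicate 1 the β-arrestin1/2 KO response exceeded the wildtype response for GNG5 by 0.47 (SE 0.12, edgeR adjusted p = 0.027), for GNG10 by 0.30 (SE 0.07, 0.017), for GNB4 by 0.25 (SE 0.06, 0.028) and for GNG12 by 0.23 (SE 0.07, 0.040), where 8.25% of all genes were called. Wildtype basal then has 2 libraries, and for GNB4, GNG10 and GNG12 the estimate with all libraries was near 0 (-0.02, -0.01 and -0.08). For GNG5 it was 0.41 with all libraries (SE 0.14, adjusted p = 0.55).

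Promoter sequence is shown for GNG12, one of the 4 members called in that response without wildtype basal replicate 1. The call of GNG12 was lost with offsets for GC and length. DUSP1 is shown for comparison, a control gene that rose with isoproterenol in the same cells (from 105, 110.3 and 117 to 1243, 1347 and 1323 CPM in β-arrestin1/2 KO). CREB, the factor that protein kinase A phosphorylates after cAMP rises, is known to bind the palindrome TGACGTCA and the shorter site TGACG. Each line gives the 150 bases before the RefSeq start, 5′ to 3′ on the gene's strand (GRCh38.p14), and capitals mark any TGACGTCA or TGACG on either strand. These 2 stretches hold no exon of GENCODE 29. The RefSeq starts of GNB4 and GNG10 lie inside the GENCODE genes, by which 120 and 150 of the 150 bases before them are exonic, and 76 of those before GNG5 are in an exon of SPATA1, so these 3 are not printed.
GNG12, chr1:67833468-67833617, minus strand: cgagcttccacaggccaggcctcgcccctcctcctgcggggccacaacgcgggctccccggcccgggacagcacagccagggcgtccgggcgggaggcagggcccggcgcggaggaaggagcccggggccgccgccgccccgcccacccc
DUSP1, chr5:172771196-172771345, minus strand: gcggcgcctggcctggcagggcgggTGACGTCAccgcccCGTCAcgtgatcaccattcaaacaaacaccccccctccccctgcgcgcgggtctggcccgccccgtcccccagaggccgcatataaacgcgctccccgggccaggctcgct

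The GNG12 stretch holds no capitals, and that of DUSP1 holds the palindrome and a further TGACG on the other strand. In the longer windows of the same table, 250 bases before to 50 after the RefSeq start, all 10 members matched, with 16 windows because GNB5 has 3 starts and GNG2 has 5. TGACGTCA was in 0 of the 16, where it was in 1.85% of 35116 windows of all genes. TGACG on either strand, which also counts any copy within the palindrome, was in 5 of the 16, where it was in 24.6% of all windows. The 5 belong to GNB1, GNB2, GNG4, 1 start of GNB5 and 1 start of GNG2. Among the control genes, only DUSP1 had TGACGTCA in its window. The windows of NR4A1, FOS and SIK1 held no TGACGTCA. TGACG was in those of FOS and SIK1 and in neither window of NR4A1. NR4A2 and PCK1 had no window, so DUSP1 does not stand for the control genes. These counts describe letters in these windows only.

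The genes that serve the dimer were counted from lists of their own. Of 15 chaperone and assembly genes 13 were tested, and in β-arrestin1/2 KO against wildtype basal 2 rose and 8 fell, led by subunits of the chaperonin CCT: CCT2 (-0.98, SE 0.08), CCT5 (-0.78, SE 0.07) and CCT3 (-0.54, SE 0.08). The counts were 2 higher and 7 lower in the isoproterenol libraries, with CCT2 at -0.95 and CCT5 at -0.64, beside 15.7% of all genes called lower. In Gαs KO against wildtype they were 1 higher and 4 lower at basal, with CCT5 at -0.46, CCT2 at -0.45 and CCT8 at -0.38, and 1 higher and 6 lower after isoproterenol, with CCT2 at -0.55, beside 15.8%. The share of all genes that were called lower was 17.9% and 17.1% in those 2 basal comparisons. CCT folds tubulin and actin as well as Gβ, and these counts say nothing of Gβ protein. Without wildtype basal replicate 1 the falls at basal were 8 and 6, beside 23.7% and 24% of all genes.

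The counts of the lists that follow stand beside the 33.6% of all genes called in β-arrestin1/2 KO basal and the 31.3% called in Gαs KO basal (46.7% and 45.9% without wildtype basal replicate 1). Of the 7 prenylation and processing genes, 1 rose and 1 fell in β-arrestin1/2 KO basal: PCYOX1 (0.36, SE 0.13) and FNTA (-0.39, SE 0.10), the α subunit shared by the enzymes that attach the farnesyl and geranylgeranyl lipids. FNTA was also lower in Gαs KO basal (-0.32, SE 0.10), the 1 call of the list there. Without the 1 library 3 of the 7 were called in both comparisons. Of the 7 tested genes on the GNB5 list, which holds R7 RGS proteins and proteins that bind them, 2 rose in β-arrestin1/2 KO basal. These were RGS7 (1.86, SE 0.65) and RGS9 (0.82, SE 0.16). In Gαs KO basal 2 rose, GPR158 (1.88, SE 0.63) and RGS6 (1.40, SE 0.37), and RGS7BP fell (-0.59, SE 0.20). Without the 1 library 2 and 3 of 8 tested were called. GNB5 itself differed by 0.17 (SE 0.10) and -0.02 (SE 0.10) in those comparisons and was not called.

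Of 29 effectors of the dimer 24 were tested, and 4 rose and 4 fell in β-arrestin1/2 KO basal. KCTD12, a GABA-B receptor subunit that binds the dimer, rose by 3.98 (SE 0.17), PLCB2 rose by 1.24 (SE 0.23), and PREX1, an exchange factor for Rac, fell by 1.09 (SE 0.15) on the log2 scale. In Gαs KO basal 2 rose and 2 fell, with PREX1 at -1.29 (SE 0.16), the receptor kinase GRK3 at -0.74 (SE 0.11) and PLCB1 at 0.54 (SE 0.16). Without wildtype basal replicate 1, 13 and 10 of 25 tested were called. Of the other Gβ and Gγ genes, 6 of 7 were tested. GNB3 was lower in β-arrestin1/2 KO basal, at 1.53, 0.87 and 1.05 CPM against 6.20, 2.33 and 3.92 CPM in wildtype, a log2 difference of -1.86 (SE 0.35, edgeR adjusted p = 0.00067). GNG7 rose there by 0.46 (SE 0.12) and GNGT2 fell by 2.38 (SE 0.78), from 14 to 21 counts a library in wildtype to 1 to 6 counts. In Gαs KO basal GNGT1 rose by 1.11 (SE 0.30) and GNGT2 fell by 2.98 (SE 0.82), and GNG3 and GNG13 were not called in either. Without the 1 library 3 of 6 were called in both comparisons.

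Of the α subunits 12 of 16 were tested. In Gαs KO basal GNAS fell by 4.32, GNAL, its close relative, by 1.04 (SE 0.08) and GNAZ by 0.60 (SE 0.09). The list had 1 call of a rise in Gαs KO basal as well. In β-arrestin1/2 KO basal GNAZ fell by 0.72 (SE 0.09) and GNAL by 0.59 (SE 0.08), while GNAI2 rose by 0.37 (SE 0.08). A higher GNAI2 level was not particular to that line. It was at 117, 121 and 119 TPM in Gαs KO basal and at 105, 111 and 104 TPM in β-arrestin1/2 KO basal. Wildtype basal had 73.6, 73.3 and 70.4 TPM. The α subunit calls were 3 of 12 in β-arrestin1/2 KO and 4 of 12 in Gαs KO, and 9 and 7 of 12 without the 1 library. The loss of GNAS messenger RNA in Gαs KO basal was 4.06 (log2) without wildtype basal replicate 1. In that same comparison the largest difference of a member was -0.40, that of GNB4. In no comparison of the 10, in either fit, did a called member reach a fold of 1.5.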

How the data were processed

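Poly-A RNA of 18 HEK293 libraries was sequenced as read pairs. The authors deposited expected counts per transcript (184844 transcripts) from Salmon 1.7.0, not normalized; the submitters' notes name GRCh38 and DESeq2, and the transcript index is not given in the sources used here. Transcripts were joined by identifier to GENCODE 29 (161798 matched), summed to genes and rounded, which kept 92.9 to 93.7% of the counts. Genes passing filterByExpr (15519) were fitted in edgeR 4.0.16 (R 4.3.3), with TMM scaling and 1 quasi-likelihood model over the 6 groups, for 10 comparisons. TPM was computed from annotated lengths. Alternatives included DESeq2 1.42.0 and GC and length offsets (lowess span 0.3). Scripts were tested on simulated data. Replicate pairs differed by more than sampling noise (chi-square per degree of freedom at least 3.99). All 10 members are named; of other lists, at most the 3 called genes with the largest difference per comparison. Members and lists were chosen with earlier results of these data known. The 2 combinations of an alternative with the omission of wildtype basal replicate 1 were added after seeing the data. Replicate numbers were not used as pairs. One marker of another cell type is not reported here.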

Additional observations from a re-analysis of the deposited data

Results flagged for a closer look

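In the fit without wildtype basal replicate 1, the isoproterenol response of 4 members was not the same in wildtype and β-arrestin1/2 KO libraries by edgeR's test of the difference (interaction): GNG5 by 0.47, GNG10 by 0.30, GNB4 by 0.25 and GNG12 by 0.23 (log2, β-arrestin1/2 KO minus wildtype). With all 18 libraries none of the 4 passed. The 4 were at adjusted p between 0.017 and 0.040 in the smaller fit, where 8.25% of all genes passed. With GC and length offsets added, GNG5 alone passed (0.51, adjusted p = 0.038), and GNG10, GNB4 and GNG12 were at 0.22, 0.08 and 0.03.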

How the results depend on the processing

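The number of the 10 members called depended most on 1 library. Leaving out 1 library at a time gave 0 to 5 members in β-arrestin1/2 KO against wildtype basal, 0 to 5 in Gαs KO against wildtype basal, 0 to 3 between the knockout lines, 0 to 4 and 0 to 6 in the β-arrestin1/2 KO and Gαs KO isoproterenol comparisons with wildtype, and 0 to 4 in the β-arrestin1/2 KO response and in its interaction. Each upper value is the fit without wildtype basal replicate 1. The call of GNG5 at basal was lost without β-arrestin1/2 KO basal replicate 1 (-0.25) or 2 (-0.30), without wildtype basal replicate 2 (-0.20) and under upper quartile scaling (-0.25), in these last 2 with GNG10 called in its place, and with GC and length offsets (-0.14), where GNB4 and GNG10 were called. The call of GNG4 between the knockout lines was lost without Gαs KO basal replicate 3 or β-arrestin1/2 KO basal replicate 2 or 3. Gαs KO against wildtype basal gave 3 calls without wildtype basal replicate 2, which were GNG10, GNG11 and GNG12. Over these fits the basal log2 difference between β-arrestin1/2 KO and wildtype ranged from -0.17 to 0.21 for GNB2 and from -0.27 to 0.30 for GNG12. The interaction of β-arrestin1/2 KO ranged from -0.23 to 0.25 for GNB4, from -0.24 to 0.30 for GNG10 and from -0.34 to 0.23 for GNG12.

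In the order β-arrestin1/2 KO basal, Gαs KO basal, knockout lines basal, β-arrestin1/2 KO isoproterenol and Gαs KO isoproterenol, GC and length offsets gave 2, 5, 4, 5 and 4 calls of 10 beside 42.9 to 48.3% of all genes. The offsets without wildtype basal replicate 1 gave 4, 7, 4, 7 and 7 beside 46.5 to 51%, and DESeq2 without that library gave 5, 4, 3, 5 and 6 beside 45 to 49.3%. DESeq2 with all libraries gave 1 call in both Gαs KO basal and β-arrestin1/2 KO isoproterenol, and 2 in Gαs KO isoproterenol. Only the groups compared gave 0, 3, 4 and 7 calls in β-arrestin1/2 KO basal, knockout lines, β-arrestin1/2 KO isoproterenol and Gαs KO isoproterenol, beside 10.3%, 48.2%, 49.5% and 50.9%. Keeping all genes with at least 1 count, or asking for a fold of 1.5, gave 0 in β-arrestin1/2 KO basal and between the knockout lines, and upper quartile scaling gave 1 in both isoproterenol comparisons. For the β-arrestin1/2 KO response the counts were 1 by DESeq2, 4 with only its groups, 2 with offsets and 4 by DESeq2 without wildtype basal replicate 1, and for its interaction 1 and 4 in those last 2 settings. DESeq2 without that library put GNB2 at 0.20 and GNG12 at -0.27 at basal (GNG12 at -0.18 with the offsets), and the interaction at 0.25 for GNB4, 0.30 for GNG10 and 0.23 for GNG12. The causes were not tested. Of 3000 log2 differences of members under an alternative, 101 changed sign while called neither there nor in the reported fit, and these were not counted as reversed.

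With the replicate number as a block the counts were 1 in β-arrestin1/2 KO basal, 1 between the knockout lines and 0 in the other 8 comparisons, as without it. Same-numbered libraries correlated at -0.10 to 0.077 in their deviations, so no shared effect of the replicate number was seen. Such correlations cannot show whether same-numbered samples were handled together.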
